A study of Homo sapiens with 9 samples.

Results

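Sites marked by γH2AX in all 4 conditions of the experiment were defined as merged autosomal regions holding a peak from at least 1 replicate each of untreated cells and of cells given aphidicolin (APH), hydroxyurea (HU) or methyl methanesulfonate (MMS). The autosomal peaks of all 8 lists were merged wherever they overlapped by at least 1 bp. Of 145144 merged regions, 563 met this rule, which is 0.388%. The sites were chosen by the presence of a peak in each condition, so the number of conditions, the width of the merged regions and the number of peaks they hold are descriptions of that choice and carry no test.

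The peaks came from chromatin immunoprecipitation with sequencing (ChIP-seq) in a human B-lymphoblastoid cell line, named GM09027A in the sample labels and GM07027 in the study's text. Cells were left untreated or were exposed for 24 h to APH at 0.1 μg/mL, to HU at 2 mM or to MMS at 200 μM, and each condition had 2 replicates, described by the study as independent biological replicates. Peaks were called in each library against input DNA, and the input library itself was not analysed here. The lists carried no read numbers, so the depth behind each peak is unknown. The 8 lists held between 4327 and 79891 autosomal peaks: 4779 and 4327 in untreated cells, 17658 and 14009 with APH, 79891 and 69922 with HU, and 12202 and 10465 with MMS.

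Histone H2AX is phosphorylated on a serine near its carboxyl terminus by the checkpoint kinases ATR, ATM and DNA-PK, and the modified form, γH2AX, spreads over the chromatin around stalled replication forks and DNA breaks. The 3 agents slow forks by separate routes: APH inhibits the replicative DNA polymerases, HU depletes deoxynucleotides by inhibiting ribonucleotide reductase, and MMS methylates bases in the template. Growing cells also carry γH2AX without any agent, and chromosome ends, with their repeats and late or difficult replication, are one place where it has been described.

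In 19 sites at least 1 base lay under a peak in every one of the 8 lists. One such site from each of 4 chromosome ends, with a shared stretch short enough to print, is shown so that the marked sequence itself can be read. Each line gives 300 bp of the GRCh38 forward strand, 5′ to 3′, and the capitals mark the bases under a peak in all 8 lists.

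KANK1, chr9:547020-547319: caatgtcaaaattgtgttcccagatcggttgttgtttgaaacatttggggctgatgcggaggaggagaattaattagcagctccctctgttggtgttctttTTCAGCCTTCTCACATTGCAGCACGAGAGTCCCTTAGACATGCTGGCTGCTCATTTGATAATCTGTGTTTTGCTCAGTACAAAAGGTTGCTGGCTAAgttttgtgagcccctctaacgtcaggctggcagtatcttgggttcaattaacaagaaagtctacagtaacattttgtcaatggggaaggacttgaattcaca
RAB40B intron, chr17:82693440-82693739: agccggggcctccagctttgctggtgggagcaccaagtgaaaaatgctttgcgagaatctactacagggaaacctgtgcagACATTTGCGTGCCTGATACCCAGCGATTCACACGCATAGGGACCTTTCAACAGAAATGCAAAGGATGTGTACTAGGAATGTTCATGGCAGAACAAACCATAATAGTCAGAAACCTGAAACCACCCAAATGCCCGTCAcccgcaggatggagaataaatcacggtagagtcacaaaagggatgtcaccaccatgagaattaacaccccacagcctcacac
DIP2A intron, chr21:46530169-46530468: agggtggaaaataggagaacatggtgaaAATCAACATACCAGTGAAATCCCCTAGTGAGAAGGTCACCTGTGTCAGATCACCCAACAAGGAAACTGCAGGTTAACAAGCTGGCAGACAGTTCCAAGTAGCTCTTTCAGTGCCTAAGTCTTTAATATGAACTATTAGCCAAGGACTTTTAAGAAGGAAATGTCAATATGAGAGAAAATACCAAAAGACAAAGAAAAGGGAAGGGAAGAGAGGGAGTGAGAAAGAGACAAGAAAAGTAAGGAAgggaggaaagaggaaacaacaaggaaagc
TRIM7-AS2 intron, chr5:181193188-181193487: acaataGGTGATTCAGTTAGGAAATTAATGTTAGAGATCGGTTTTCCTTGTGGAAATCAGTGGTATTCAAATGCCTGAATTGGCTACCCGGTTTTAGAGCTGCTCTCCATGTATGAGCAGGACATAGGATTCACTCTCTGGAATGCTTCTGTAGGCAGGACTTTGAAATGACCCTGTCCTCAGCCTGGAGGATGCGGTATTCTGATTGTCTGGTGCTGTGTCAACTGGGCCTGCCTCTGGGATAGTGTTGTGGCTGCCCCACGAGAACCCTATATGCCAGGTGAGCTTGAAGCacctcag

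The stretch in KANK1 was 97 bp long, and its midpoint lay in an annotated exon outside the coding sequence and UTRs of that gene. Those of RAB40B, DIP2A and the long non-coding RNA gene TRIM7-AS2 had intronic midpoints and measured 137, 243 and 287 bp. GC content of the windows was 43.7% at KANK1, 49.0% at RAB40B, 41.3% at DIP2A and 48.3% at TRIM7-AS2, beside a median of 44.6% in 500 bp windows of all merged regions.

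The 563 sites had a median width of 4146 bp and together covered 3636 kb. The quartiles were 2443.5 and 7993.5 bp, the extremes 401 and 74722 bp, and 373 sites (66.3%) reached 3 kb. Merged regions of 1, 2 and 3 conditions had median widths of 641, 1381 and 2373 bp, an order that merging builds in, because a wide region can meet a peak of a further condition anywhere along its length. At 275 sites (48.8%) some base was covered by all 4 conditions, with a median of 336 bp where any was. At the other sites the conditions were joined by chains of overlapping peaks.

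Few sites were found in every list. A peak was present in 4 lists at 35 sites, in 5 at 197, in 6 at 167, in 7 at 100 and in all 8 at 64 sites. The sites with more lists were wider, from a median of 1549 bp with 4 lists to 9756.5 bp with 8. The sites with 7 or 8 lists lay within 5 Mb of a chromosome end more often than the others, with no steady order among the rest: 25.7%, 17.3%, 28.7%, 67% and 84.4% of the sites with 4, 5, 6, 7 and 8 lists were that near.

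Replicates overlapped at the sites to different degrees in the 4 conditions. Both HU replicates held a peak at 453 sites (80.5%), against 28.7% of all merged regions with an HU peak. Both APH replicates did so at 256 sites (45.5%), against 6.92% of regions with an APH peak. The corresponding counts were 202 sites (35.9%) in untreated cells, against 9.21%, and 176 sites (31.3%) with MMS, against 4.11%. Since a peak in either replicate sufficed for selection and the sites were wide, nothing is read from these differences.

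Position along the chromosome was not part of the rule, but the rule required peaks from lists that differ in position. Of the untreated peaks, 20.3% and 20.6% lay within 1 Mb of an end, against 1.62% and 1.78% of HU peaks, with APH and MMS between. Of the 126169 regions of 1 condition, 93203 held HU peaks only. The shares that follow are therefore not independent of the rule. The midpoints of 212 sites (37.7%, 95% Wilson interval 33.7 to 41.7) fell within 5 Mb of a chromosome end, here called terminal sites, where 7.0% of assembled autosomal bases lie. The share was 19.4% for regions of 3 conditions, 12.5% for 2 and 8.70% for 1. Within 1 Mb of an end the shares were 32.3% of the sites and 11.2%, 4.06% and 1.85% of the regions of 3, 2 and 1 conditions.

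The high share was limited to the last megabase in the distance bands examined. Sites made up 7.10% of merged regions within 0.25 Mb of an end (48 of 676), 6.31% between 0.25 and 0.5 Mb (67 of 1062) and 3.86% between 0.5 and 1 Mb (67 of 1738). Between 1 and 2 Mb the share was 0.188% (5 of 2657), and in the 5 bands farther in it ranged from 0.203% to 0.331%. The 95% Wilson intervals of the 3 outer bands, the lowest of which began at 3.05%, did not meet those of the bands beyond 1 Mb, the highest of which ended at 0.488%. These intervals cover counting error only and treat neighbouring regions as independent, which they are not. The last megabase was also rich in regions of 3 conditions, so this position was not particular to the sites. Such regions numbered 90 of 676, 109 of 1062 and 128 of 1738 in the 3 outer bands, and 85 of 2657 between 1 and 2 Mb.

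**Figure D1:**
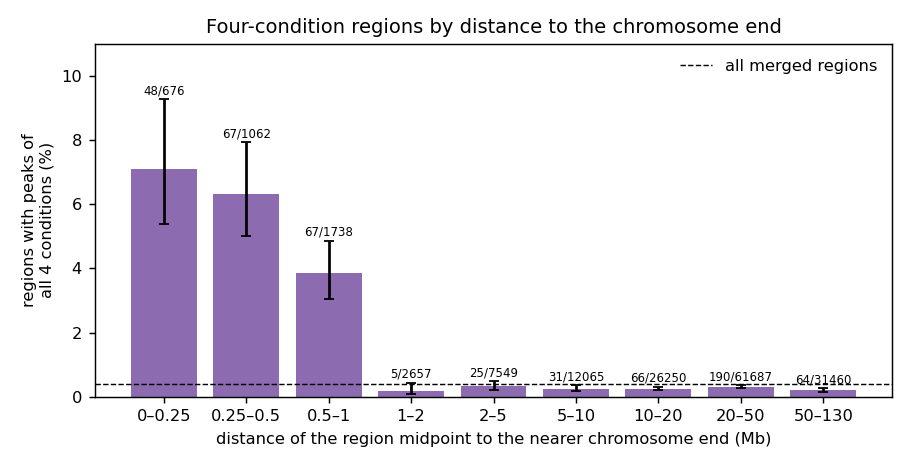
Percent of merged autosomal regions with peaks of all 4 conditions (vertical axis) by distance of the region's midpoint to the nearer chromosome end in Mb (horizontal axis). Bars give the share with 95% Wilson intervals and the counts above them, and the dashed line is the share over all merged regions (0.388%). The 3 bands within 1 Mb stand between 3.86% and 7.10%, and every band farther in stands at or below 0.331%.

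The terminal sites were shared unequally among the chromosome ends. Chromosome 17 held 36 within 5 Mb of its long-arm end and 32 at its short-arm end, and the start of chromosome 9 held 30. The long-arm ends of chromosomes 21 and 22 followed with 14 and 12, and the start of chromosome 6 held 10. At 10 ends with merged regions, both ends of chromosome 10 among them, no site was found. Together the sites of chromosome 17 numbered 101, or 17.9% of all sites, from a chromosome with 5.75% of the merged regions, a density of 12.1 sites per 10 Mb. Chromosome 13 had the fewest, with 2 sites.

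The 3 windows of 1 Mb with the most sites held 89 of them (15.8%). The first megabase of chromosome 17 and the window chr17:82000001-83000000 held 30 each, and the first megabase of chromosome 9 held 29. In the first megabase of chromosome 9 the lists had 119 and 143 untreated peaks, 152 and 160 APH peaks, 50 and 55 HU peaks, and 134 and 148 MMS peaks. Untreated cells thus had more peaks there than HU-treated cells did, although the HU lists were the longest of all genome-wide. The first megabase of chromosome 17 had 113 and 97 untreated, 125 and 127 APH, 32 and 36 HU and 82 and 60 MMS peaks, with the same order of untreated and HU lists. In the window near the long-arm end of chromosome 17 the HU lists, with 108 and 126 peaks, were about as rich as the untreated (104 and 82) and APH lists (115 and 103).

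Terminal and interior sites differed in which condition covered them. Of the bases in the 212 terminal sites, untreated peaks covered 62.7% and 52.5% in the 2 replicates, APH peaks 69.7% and 67.3%, HU peaks 22.6% and 22.4%, and MMS peaks 19.2% and 19.6%. In the 351 interior sites HU peaks covered 78.7% and 71.2% of the bases. There the untreated lists covered 8.46% and 5.91%, the APH lists 12.0% and 7.18%, and the MMS lists 9.51% and 7.15%. Counting for each site the condition with the most covered bases, HU led at 305 interior sites (86.9%), whereas APH led at 109 terminal sites (51.4%), HU at 61, untreated at 35 and MMS at 7. As the rule used these peaks, the contrast was not tested.

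**Figure D2:**
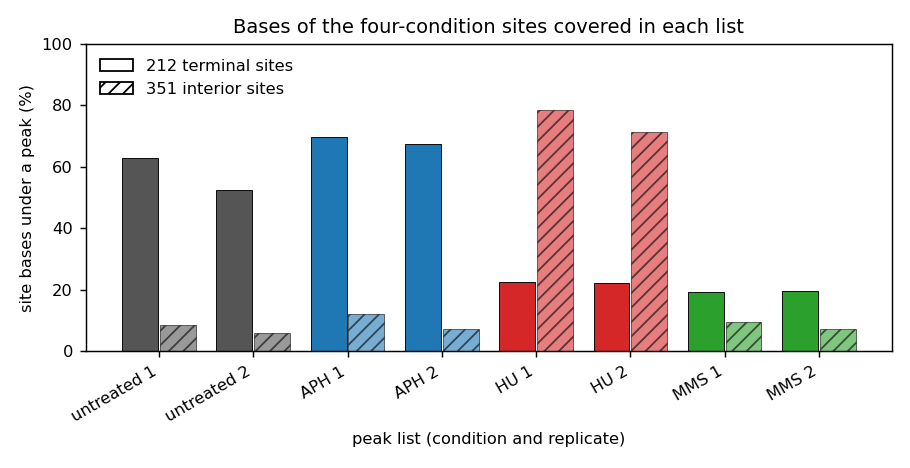
Percent of site bases under a peak (vertical axis) in each of the 8 lists (horizontal axis), for terminal sites (plain bars) and interior sites (hatched bars). Untreated and APH lists cover between 52.5% and 69.7% of terminal bases and at most 12.0% of interior bases, and the 2 HU lists show the opposite arrangement.

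Peak widths followed the same division. The median width of peaks inside terminal sites was 1407.5 and 1188.5 bp in untreated cells and 1887.5 and 1824 bp with APH, against 570 and 571 bp and 644 and 648 bp inside interior sites. HU peaks were narrower in terminal sites (866 and 820 bp) than in interior ones (2181 and 1719 bp). MMS peaks differed less between the site classes, at 690 and 811 bp in terminal and 610.5 and 635.5 bp in interior sites.

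Enrichment over input was modest at the sites in every list. The median fold enrichment of peaks in sites was 2.74 and 2.70 in untreated cells, 2.67 and 2.80 with APH, 2.85 and 2.91 with HU, and 2.70 and 2.70 with MMS. Peaks of the same lists outside the sites had medians of 2.63 and 2.61, 2.55 and 2.67, 2.70 and 2.77, and 2.64 and 2.64. By the authors' q-values, 15 of 593 and 6 of 553 untreated peaks in sites reached 0.05, as did 24 of 652 and 36 of 531 APH peaks, 673 of 749 and 633 of 828 HU peaks, and 6 of 607 and 4 of 515 MMS peaks. Over the whole lists, 42 of 4779 and 22 of 4327 untreated peaks reached it, 97 of 17658 and 183 of 14009 APH peaks, 62672 of 79891 and 42142 of 69922 HU peaks, and 20 of 12202 and 20 of 10465 MMS peaks. Outside HU, the sites therefore rest mostly on peaks past the calling threshold, a −log10 p of 3, but not past a q-value of 0.05.

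The sites clustered. At 128 terminal sites (60.4%) another site lay within 10 kb, and the median gap to the nearest site was 3.84 kb. Among interior sites 33 (9.40%) had a neighbour that close, and the median gap was 314 kb. Neighbouring terminal sites are therefore not independent of each other.

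Genes were met by the sites about as often as by other regions. The midpoint of 58.4% of the sites lay in a protein-coding gene, against 59.1%, 60.7% and 60.1% of regions of 3, 2 and 1 conditions and 45.3% of assembled bases. Transcription start sites were rare at the midpoint, with 3 sites (0.533%) within 1 kb of one against 1.15% of regions of 1 condition. Within 10 kb the shares were 42.5% of the sites and 40.2%, 35.7% and 25.6% of regions of 3, 2 and 1 conditions. Cytogenetic bands of the common fragile sites held 25.4% of the sites, 29.5% of the regions of 1 condition and 26.6% of assembled bases.

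In all, 307 of 19111 autosomal protein-coding genes overlapped a site (1.61%), 32 genes held at least 2 sites and 11 held at least 3. The 5 genes with the most sites were all at the ends of chromosomes 9 and 17: VPS53, a subunit of a vesicle tethering complex of the Golgi, held 17; DOCK8, a guanine nucleotide exchange factor used by lymphocytes, held 14; TBCD, a tubulin folding cofactor, held 11; KANK1, a regulator of the actin cytoskeleton, held 9; and RAB40B, a small GTPase, held 7. Sites covered 44.2% of the body of VPS53, 72.6% of DOCK8, 52.5% of TBCD, 87.3% of KANK1 and 56.2% of RAB40B.

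KANK1 (chr9:470291-746105, 276 kb) was the gene most fully covered of these 5. Peaks of untreated cells covered 87.7% and 81.5% of its body, APH peaks 74.0% and 77.3%, HU peaks 6.07% and 4.69%, and MMS peaks 24.0% and 27.3%. Coverage in untreated and APH lists did not overlap that in HU or MMS lists. Fold enrichment overlapped between conditions: the strongest HU peak in the gene had a fold enrichment of 3.36 and 3.09 in the 2 replicates, beside 3.27 and 3.23 in untreated cells, 3.24 and 3.48 with APH and 3.15 and 3.18 with MMS.

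Its neighbour DOCK8 (chr9:214854-465259) was likewise covered more by untreated and APH peaks than by HU and MMS peaks. Untreated peaks covered 62.1% and 48.4% of the gene, APH peaks 54.9% and 69.2%, HU peaks 4.90% and 8.44%, and MMS peaks 21.3% and 23.5%. The numbers of peaks were closer, at 49 and 52 untreated, 50 and 49 APH, 17 and 22 HU, and 47 and 55 MMS peaks, so MMS marked the gene with as many but shorter peaks.

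**Figure D3:**
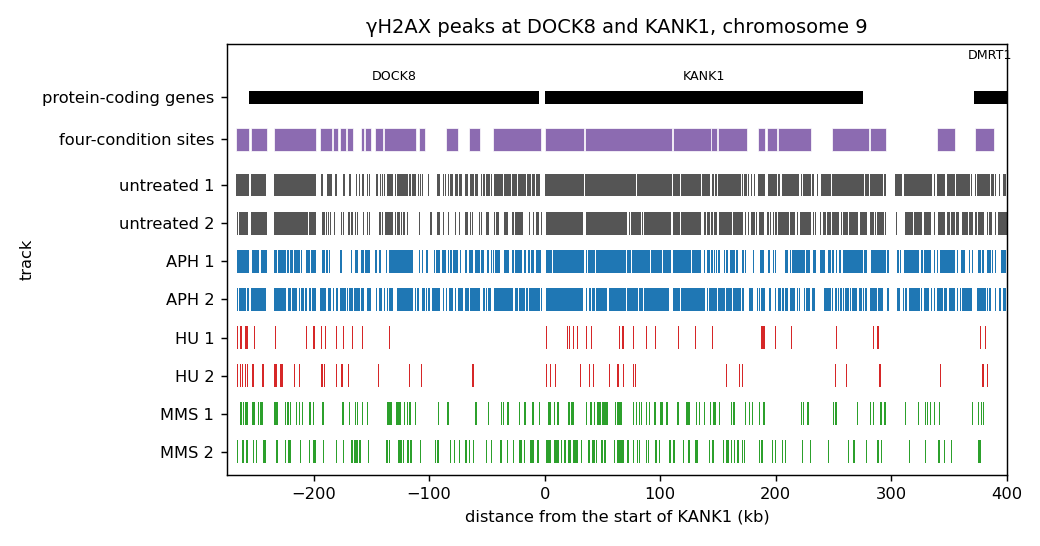
Peaks of the 8 lists over DOCK8 and KANK1 on chromosome 9, by distance from the start of KANK1 in kb (horizontal axis), with protein-coding genes in black and the four-condition sites in purple above the lists. The untreated and APH peaks are nearly continuous (93 to 130 peaks a list), the MMS lists hold 121 and 130 peaks, and the HU lists place 48 and 54 separate narrow peaks. The 27 sites in view lie only where HU peaks join the others. Between 296 and 339 kb, for example, the other 3 conditions have peaks, HU has none and there is no site.

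On chromosome 17, VPS53 (chr17:508503-721717) was covered to 28.2% and 16.8% by untreated, 46.6% and 41.3% by APH, 4.18% and 5.74% by HU and 14.7% and 14.8% by MMS peaks. TBCD (chr17:82752042-82945914) was covered to 45.1% and 33.3%, 59.4% and 60.6%, 4.32% and 6.26%, and 15.7% and 16.0% in the same order. In both genes the APH lists stood above the untreated lists and the HU lists were lowest. At RAB40B (chr17:82654973-82698698) the lists were closer, with 47.9% and 37.0% untreated, 49.7% and 41.2% APH, 15.1% and 17% HU, and 10.6% and 10.4% MMS.

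The sites with the highest mean fold enrichment among the 64 present in all 8 lists lay on chromosomes 21, 17 and 9. For each list the value given is the highest fold enrichment of its peaks in the site. The strongest, chr21:46667969-46676114, was the outermost site of chromosome 21. The midpoint of its bases marked by most lists lay in no gene, 5657 bp from PRMT2. Its fold enrichment was 4.44 and 3.6 in untreated cells, 3.92 and 3.64 with APH, 2.79 and 3.42 with HU, and 3.04 and 3.07 with MMS. Untreated and APH lists were all above HU and MMS lists here.

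CTC1, which encodes a subunit of the CST complex that completes telomere replication, held 3 sites on chromosome 17, more than 5 Mb from its ends. At chr17:8226955-8233164 fold enrichment was 2.99 and 3.15 in untreated cells, 4.37 and 3.39 with APH, 2.90 and 3.24 with HU, and 3.68 and 3.2 with MMS. At chr17:8233254-8236786 it was 2.94 and 2.5 untreated, 3.68 and 3.45 with APH, 2.71 and 2.76 with HU, and 4.43 and 3.52 with MMS. In the latter site both APH and both MMS lists stood above the untreated and HU lists. In the former they stood above the untreated lists, and HU replicate 2 lay above the lower MMS value. The midpoint of the bases marked by most lists (7 of 8) fell on a coding exon at both. The remaining one, chr17:8237758-8240366, was found in 7 lists and lacked untreated replicate 2.

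PRMT2, a protein arginine methyltransferase, held the fourth strongest site, chr21:46636284-46662016. Its fold enrichment was 3.04 and 2.94 in untreated cells, 3.37 and 3.23 with APH, 2.91 and 3.56 with HU, and 3.45 and 3.08 with MMS, and the conditions overlapped. Untreated replicate 1 and both APH replicates had a single peak each in it, while the HU lists had 9 peaks each and the MMS lists 10 and 6.

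The widest site, chr9:505462-580183, lay inside KANK1 and measured 74722 bp. Fold enrichment was 3.27 and 3.23 in untreated cells, 3.24 and 3.48 with APH, 3.18 and 2.81 with HU, and 3.03 and 3.18 with MMS. Untreated replicates made it up with 2 and 5 peaks, APH with 7 and 9, HU with 8 and 8, and MMS with 18 and 20. All 4 conditions shared 8196 bp of it.

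Both next widest sites were in DIP2A, which belongs to the DIP2 family of acyl-CoA synthetase-like proteins. At chr21:46526391-46571391 (45001 bp) the 4 conditions shared 3750 bp. At chr21:46460356-46503718 (43363 bp) no base was shared by all 4 conditions, although each of the 8 lists had 3 to 14 peaks in it. With the remaining site of the gene they took in 97.1% of the gene.

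**Figure D4:**
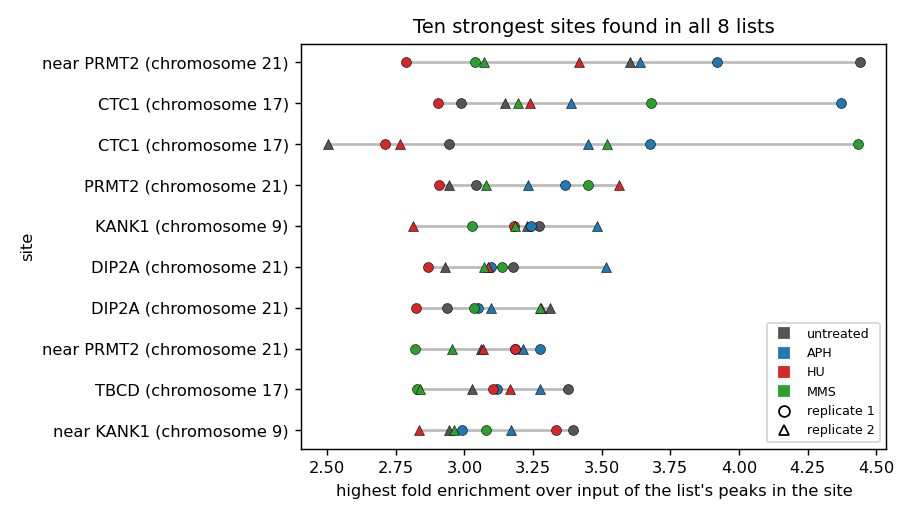
Highest fold enrichment over input of each list's peaks (horizontal axis) in the 10 sites with the highest mean among those found in all 8 lists (vertical axis). Colours give the condition, circles replicate 1 and triangles replicate 2, and grey lines span the 8 lists. The spans are widest at the uppermost site near PRMT2 and at the 2 sites in CTC1, where they reach 4.44, 4.37 and 4.43.

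The other sites of this group were chr21:46589013-46630547, overlapping S100B, TBCD's chr17:82753426-82764497 and chr9:751633-765870, beyond the end of KANK1. Their fold enrichment ranged from 2.82 to 3.40, and S100B, named in the first, encodes a calcium-binding protein.

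Of the 64 sites found in all lists, 10 were interior. These were looked at after the ranking was seen. Beside the pair in CTC1, they included introns of MUC13 (chr3:124919727-124931871), ZSCAN20 (chr1:33473577-33476730) and RAD9A as GENCODE draws it (chr11:67318624-67329315). At the MUC13 site, in a gene for a transmembrane mucin, fold enrichment was 2.67 and 2.55 untreated, 3.12 and 2.63 with APH, 2.94 and 3.10 with HU, and 2.58 and 2.99 with MMS. Both HU lists stood above both untreated lists, and the APH and MMS replicates spread across them.

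At 3 interior sites, singled out after their values were seen, narrow regions had strong p-values. At chr16:34587884-34588530 the fold enrichment was 1.67 and 1.73 in untreated cells, 1.78 and 1.67 with APH, 1.32 and 1.35 with HU, and 1.67 and 1.75 with MMS, while the highest −log10 p of a peak was 44.8. At chr16:46390324-46391032, found in 7 lists, the mean fold was 1.44 and the highest −log10 p 50.9. At chr21:8234147-8234893 these values were 2.64 and 66.1. Of the 31-base words in the 500 bp at their midpoints, 20%, 47.9% and 15.7% occurred once in the genome, against a mean of 88.9% over all sites. How repeated sequence moved the calls at these sites was not tested. Over all 563 sites the mean fold had a median of 2.81, and only 2 sites were below 2.

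Gene lists for fragile sites and for damage responses were set beside the 1.61% of all autosomal protein-coding genes that overlapped a site. At that share lists this short would hold few or none, but it takes no account of gene length. The large common fragile site genes measured 629 kb or more, against a median of 27.9 kb for autosomal protein-coding genes. None of 20 large common fragile site genes held one, although 17 of them held some merged region, among them FHIT with 197 and WWOX with 198. AUTS2 and RAD51B came closest, with 1 and 6 regions of 3 conditions. Of 18 genes prone to breaks in B cells, CIITA, the transactivator of MHC class II genes, held 1 site, chr16:10938969-10940828, which overlapped the neighbouring gene DEXI and was present in 5 lists.

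Among 27 autosomal genes of fork and damage signalling, RAD9A, which encodes a subunit of the checkpoint sliding clamp, overlapped 1 site. Fold enrichment there was 2.68 and 2.63 in untreated cells, 2.87 and 2.70 with APH, 3.23 and 3.25 with HU, and 2.68 and 2.68 with MMS, with both HU values above all others. This site lay in an upstream extension that GENCODE gives the gene (80.5 kb), outside the 6.43 kb RefSeq gene on GRCh38, and 40.9% of its 31-base words were unique. Of 11 autosomal telomere genes CTC1 alone held sites. With so few genes a list, nothing is read from these counts.

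In 500 bp windows at the midpoints, median GC content was 47.4% at the sites, 47.4%, 46.4% and 44.2% in regions of 3, 2 and 1 conditions and 44.6% over all regions. Terminal sites had a median of 46.4% and interior sites 48.0%. The clusters at chromosome ends spanned a wide range, from 42.4% at the start of chromosome 9 to 51.7% at the end of chromosome 17.

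Alu matches and the telomeric hexamer were near their share over all regions. G-quadruplex patterns were above it over all sites, with regions of 3 and 2 conditions between, but not in terminal sites. An Alu match of at least 100 bp was found in 22.4% of the sites (95% Wilson interval 19.1 to 26.0) and 20.4% of all regions. The telomeric hexamer TTAGGG, searched on both strands as TTAGGG or CCCTAA, occurred in 17.6% of the sites and 17.4% of all regions, and no site window held 2 copies in a row. A run of at least 20 A or 20 T bases occurred in 3.02% (1.89 to 4.78) against 1.94%. A G-quadruplex pattern, 4 runs of at least 3 G with loops of up to 7 bases on either strand, occurred in 7.10% of the sites (5.26 to 9.53) against 4.79% of all regions. Regions of 3, 2 and 1 conditions had it in 5.95%, 5.55% and 4.66%, and the first 2 of these lie inside the interval of the sites. That pattern was more frequent in interior sites (9.40%, 6.77 to 12.9) than in terminal ones (3.3%, 1.61 to 6.66, 7 sites). Interior regions of 3, 2 and 1 conditions had it in 5.98%, 5.64% and 4.50%. Terminal regions of 3, 2 and 1 conditions had it in 5.84%, 4.86% and 6.31%, all above the terminal sites but inside their interval. CpG-island-like windows made up 0.710% of the sites (4 sites, 0.277 to 1.81) and 0.228% of all regions. Of these sites 3 were terminal (1.42%, 0.482 to 4.08), beside 0.784% of terminal regions of 1 condition. The interior one made up 0.285%, beside 0.174% of interior regions of 1 condition. Nothing is read from so few.

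To read out the sites in data that had not chosen them, the rule was applied to the 4 lists of 1 replicate number, and the peaks of the other number were then examined. Replicate 1 gave 200 sites and replicate 2 gave 135. A peak of the same condition was found in the held-out list at 55.5% and 80.7% of these sites in untreated cells, 66.0% and 86.7% with APH, 85.0% and 77.8% with HU, and 52.0% and 69.6% with MMS. For regions with that condition alone in the choosing lists, the shares were 6.0% and 6.27%, 6.11% and 8.14%, 40.5% and 49.2%, and 3.03% and 3.79%. Averaged over both directions, the difference was 62 percentage points in untreated cells, 69.2 with APH, 36.6 with HU and 57.4 with MMS, or 56.3 ± 14.0 (SD, n = 4 conditions), positive in 4 of 4. In a two-sided exact sign-flip permutation test over the 4 conditions 2 of the 16 sign patterns were as extreme, the fewest that design allows (p = 0.12), so it cannot reach 0.05. The test takes the 4 conditions as independent, although all were read at the same sites. The series holds 1 input library, so the held-out lists may share their control with the choosing lists.

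The sites are wider than regions of 1 condition and offer more bases for a held-out peak. Within a 500 bp window at the middle of the condition's own strongest peak, the difference was 48.5 points in untreated cells, 56.9 with APH, 16.5 with HU and 31.2 with MMS, with a mean of 38.3. Against regions of 3 conditions in the choosing lists, it was 28.4, 33.6 and 32.8 points in untreated, APH and MMS lists and -0.113 in HU lists, where 81.4% of the sites and 81.5% of those regions were found again. In the 500 bp window HU peaks were found at 54.9% of the sites and 65.5% of the regions of 3 conditions. After leaving out the terminal 5 Mb, which left 124 sites from both directions, the difference remained positive at 31.1, 43.8, 49.1 and 41.0 points for untreated, APH, HU and MMS.

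**Figure D5:**
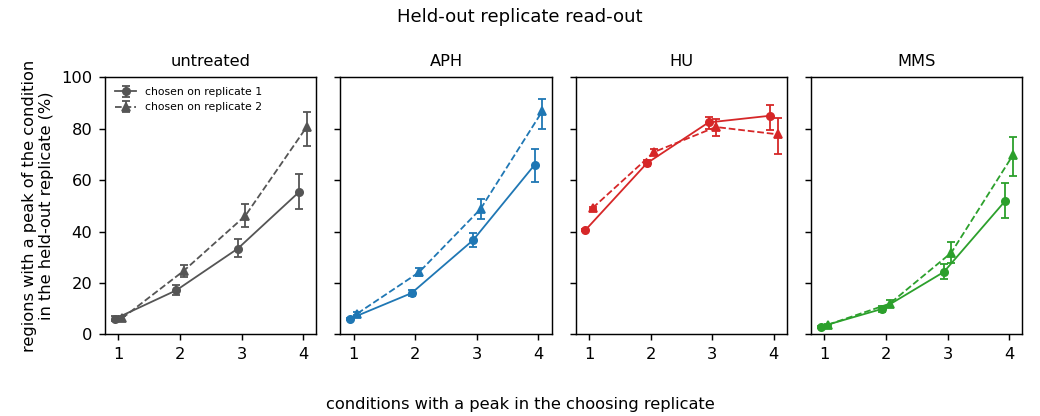
Percent of regions with a peak of the condition in the held-out replicate (vertical axis) by the number of conditions with a peak in the choosing replicate (horizontal axis), 1 panel per condition, with 95% Wilson intervals. Solid lines are regions chosen on replicate 1 and dashed lines those chosen on replicate 2. Shares climb with each added condition in the untreated, APH and MMS panels, and level off between 3 and 4 conditions in the HU panel.

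Held-out peaks in the sites had higher median fold enrichment and width than all other peaks of the same list in 4 of 4 conditions, but HU peaks did not when set beside those in regions of 3 conditions. Against all other peaks, the difference in median fold enrichment was 0.196 in untreated cells, 0.266 with APH, 0.0870 with HU and 0.0942 with MMS, or 0.161 ± 0.0859 (SD, n = 4 conditions; exact permutation p = 0.12). Median width differed by 1216, 1590, 304 and 300 bp in the same order, or 852 ± 654 bp (exact permutation p = 0.12). A held-out peak counted as in a site on any overlap, which a wide peak meets more easily. The width difference is therefore partly built in, and nothing is read from its sign. Against peaks in regions of 3 conditions the fold difference was 0.088 in untreated cells, 0.135 with APH, -0.071 with HU and 0.036 with MMS (mean 0.047, exact permutation p = 0.38). The width difference was then 868, 1271, -430 and 183 bp (mean 473 bp, exact permutation p = 0.38). With equal numbers of the strongest peaks from each list the mean fold difference reversed to -0.0611. Without the terminal 5 Mb the mean fold difference was 0.086, and the order of conditions changed, with a width difference of 1318 bp with HU and of 274, 175 and 163 bp in untreated, APH and MMS lists.

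Some sites met the rule only just, while some regions with strong peaks of 3 conditions did not meet it. The 3 sites whose weakest condition was nearest the limit were in LINC02641 (chr10:123369774-123371047), PHAF1 (chr16:67124046-67126192) and ZNRF1 (chr16:75087359-75090870), where the best peak of that condition had a −log10 p of 3.00, 3.04 and 3.04. Each was present in 5 lists. The strongest regions left out, judged by their weakest condition, were chr17:26881045-26881707, chr17:26603528-26604293 and chr17:25919880-25920581, with a −log10 p of 17.1, 8.79 and 6.51. All 3 were narrower than 1 kb, had midpoints in no gene and had peaks in 6 lists and none with HU.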

How the data were processed

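γH2AX ChIP-seq peak lists of a B-lymphoblastoid line were taken as deposited, 2 for each of the untreated, APH, HU and MMS groups given by the labels. The submitters' processing notes name Bowtie2, SAMtools and MACS2 and the hg38 build, with no version given in the sources used here. Per the study's methods and the file headers the authors called broad peaks in each library against input. Each deposited row carries a score, a fold ratio over input, a −log10 p-value and a −log10 q-value, which MACS2 averages over the broad peak. No peak had a −log10 p below 3. The lists hold no read numbers, so depth and its precision cannot be given, and Wilson 95% intervals cover the counting of regions only.

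Autosomal peaks of the 8 lists were merged on 1 bp overlaps with Python 3.11.15, NumPy 2.4.6 and pandas 2.3.3. Regions with all 4 conditions were kept. Genes came from GENCODE release 44, and sequence came from GRCh38 (500 bp windows at region midpoints). Alu matches were sought with BLAST 2.17.0, with an Alu-like query taken from windows that matched 7SL RNA. Unique 31-base words were counted over the primary chromosomes. A site within 5 Mb of a chromosome end was called terminal. Recovery was tested with sites chosen on 1 replicate number and read in the other, by an exact sign-flip permutation test over the 4 conditions. Wilson intervals were computed with SciPy 1.17.1. The merging and the held-out read-out were tested on simulated data, and the permutation p-value was not checked there.

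Named sites were the 10 with the highest mean fold in all 8 lists, the 3 widest, the 3 densest windows of 1 Mb, the 5 genes with most sites, the 3 sites just inside and 3 regions just outside the rule, and sites in listed genes. Members and gene lists were chosen with earlier results of these data known. Alternatives changed merging, overlap, peak strength, list size, replicates and window. Peaks outside the autosomes and the input library were left out.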

Additional observations from a re-analysis of the deposited data

How the results depend on the processing

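The number of sites (563) followed the definition. It was 767 with peaks within 1 kb merged, which stayed within 1.5 times, 346 when an untreated peak itself had to overlap each treatment, 247 with overlaps of at least 50%, 188 with the stronger 50% of each list, 64 with both replicates of each condition, 42 at a −log10 p of at least 4, and 39 with equal numbers of the strongest peaks. With a base covered by all 4 conditions, a definition chosen after seeing the data, it was 275. Leaving out 1 list gave 335 to 463, with 346 without untreated replicate 1, 359 without APH replicate 1 and 335 without MMS replicate 1. Median width was 5720 (1 kb merging), 1141 (untreated peak overlapping each treatment), 10318 (−log10 p of at least 4), 6109 (equal numbers) and 9756.5 bp (both replicates), and 3285 to 4628 bp without 1 list. The share within 5 Mb of an end was 29.3%, 58.1%, 90.5%, 48.7% and 84.4% in the same order, 37.6% to 51.8% without 1 list, and 32.3% and 43.2% with ends of 1 and 10 Mb. The share in protein-coding genes was 51.3% with equal numbers, 62.5% with both replicates, 62.7% on any overlap and 56.4% to 61.3% without 1 list. Median GC content was 46.7% (untreated peak overlapping each treatment), 45.0% (−log10 p of at least 4), 46.0% (equal numbers), 45.6% (both replicates) and 46.8% to 47.6% without 1 list. The held-out difference in recovery stayed positive in 8 of 8 alternatives (23.7 to 61.9 points). That in width did so in 6 of 6, but its sign is partly built in by counting any overlap. The difference in fold reversed with equal numbers of the strongest peaks, to -0.0611 ± 0.459 (exact permutation p = 1), with -0.738 in HU lists, and kept its direction in the other 5. The causes of these shifts were not tested. No paired analysis was possible because no result came from a test between groups of samples: the held-out comparison is made within each list, and replicate numbers served only to separate choosing from reading. Unknown depth limits what the absence of a peak means.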

Other observations

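Outside the autosomes there were 157 merged regions, of which 1 held peaks of all 4 conditions. It lay on an unplaced, unlocalised or alternate sequence, and none on chromosome X did. It was not found in all 8 lists.

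The 563 sites were unevenly fed by the lists. They took in 12.4% and 12.8% of the untreated peaks, 3.69% and 3.79% of the APH peaks, 0.938% and 1.18% of the HU peaks, and 4.97% and 4.92% of the MMS peaks. Of all untreated peaks, 20.3% and 20.6% lay within 1 Mb of a chromosome end, beside 8.93% and 9.92% of APH, 1.62% and 1.78% of HU and 6.07% and 5.95% of MMS peaks. In numbers these were 971 and 890 untreated, 1577 and 1390 APH, 1292 and 1242 HU, and 741 and 623 MMS peaks, so the conditions were closer to each other near the ends than over the whole genome.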
